A study of Bos taurus with 8 samples.

Results

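The miRNAs described here are the bovine entries bta-miR-532, bta-miR-188, miR-502a, miR-502b, miR-362-5p, miR-362-3p, miR-500 and miR-660, which are encoded close together within the gene CLCN5 on chromosome X. They were chosen by name, as every array entry of these miRNAs with any arm suffix, which gave 8 of 763 miRNAs and 16 of 1657 probes (the prefix bta is left off from here on). The set was picked from miRNAs whose log2 differences between the breeds on these same arrays were already known, so those differences are given as a description, with a standard error and no test of their own. Small RNA was measured in mammary gland tissue from healthy non-pregnant heifers of the dairy breed Holstein-Friesian (HF, 4 animals) and the beef breed Limousin (LIM, 4 animals). The age is 20 months in the sample characteristics and 2 years in the labels' protocol. No treatment or genetic change is named for either breed, and the samples are labelled as biological replicates. One-colour Agilent arrays were used, 1 for each animal and all 8 on 1 slide read in 1 scan. The first number of the slide position was 1 for HF and 2 for LIM, so breed cannot be told apart from slide position. The second number equalled the replicate number in both breeds.

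MicroRNAs are short RNAs that lower the output of messenger RNAs, which they recognise mainly through bases near their 5′ end. Those that lie within an intron of a protein-coding gene are often cut from the same primary transcript as the host, and clustered hairpins can then be made together, although each one is processed and degraded on its own. CLCN5 encodes the chloride and proton exchanger ClC-5 of endosomes, best known from the kidney, and the cluster is conserved among placental mammals. In mouse, miR-188 has been studied for its part in the choice of marrow stromal cells between bone and fat.

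In the RefSeq annotation of a later cattle assembly than the one used for the array, 8 miRNA genes and 1 tRNA gene lie inside the limits of CLCN5. Their order along the chromosome is MIR532, MIR188, MIR502A-2, MIR502B, MIR362, MIR500, MIR660 and MIR502A-1. The array annotation places the same entries on chromosome X of UMD 3.1 between 92886525 and 92903867, a span of 17.3 kb, and no other array entry has a probe there. At every place, the probe without its 3′ base starts 1 position later, so the probes are complementary to the plus strand. Their place in introns or exons of CLCN5 was not analysed here. The probe of miR-532 is placed at chrX:92886525-92886540, that of miR-188 at chrX:92886849-92886862, that of miR-502b at chrX:92898008-92898021, that of miR-362-3p at chrX:92898486-92898503, that of miR-500 at chrX:92899718-92899732 and that of miR-660 at chrX:92901872-92901886. For probes placed once, the annotated interval is 1 base shorter than the probe. The probe of miR-502a fits 2 places in the cluster, at chrX:92893881-92893896 and chrX:92903852-92903867. The probe of miR-362-5p fits chrX:92898453-92898469 in the cluster and also chrX:54771228-54771244 on the same chromosome, so its signal may hold RNA from both places.

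Each miRNA had 2 probes that differ by 1 base at the 3′ end. The longer probe of each is shown here because the sequences decide which members can be told apart; they are DNA probes as the scanner files give them, 5′ to 3′, and capitals mark the run of 9 bases that the probes of miR-502a, miR-502b and miR-362-3p share.
miR-532: acggtcctacactcaag
miR-188: accctccaccatgca
miR-502a: tGAATCCTTGcccagg
miR-502b: GAATCCTTGcccagg
miR-362-5p: actcacacctaggttcc
miR-362-3p: GAATCCTTGaataggtgtg
miR-500: tctcacccaggtagca
miR-660: cagctccgatatgcaa
The whole 15-base probe of miR-502b lies within the 16-base probe of miR-502a, so these 2 entries cannot be told apart. The other 6 share runs of at most 9 bases with any other entry on the array. GC content ran from 42.1% for the miR-362-3p probe of 19 bases to 60% for the miR-188 probe of 15 bases.

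Of the 8 miRNAs, 6 were well above background on all 8 arrays and 2 on none, against 232 and 463 of all 763 miRNAs. The 2 detected on none were miR-502a and miR-502b. Their probes gave intensities of 0.713 to 9.48 and 0.905 to 7.99, at most 55.1% and 46.4% of the lowest intensity detected on the same array. At most 3.33% of the spots of any of their probes were well above background, where over 50% was required. No level and no breed difference is given for these 2 miRNAs.

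The 6 detected miRNAs had weak signals. The longer probe of miR-500 stood 5.27 to 11.0 times above the lowest detected intensity of its array, that of miR-362-5p 4.38 to 9.89 times, that of miR-362-3p 2.58 to 6.89 times, that of miR-532 2.75 to 6.92 times, that of miR-660 2.46 to 6.04 times and that of miR-188 3.1 to 5.32 times. Averaging 30 spots left a small error between the spots of an array. The median standard error over spots was 0.018 to 0.028 on the log2 scale. Standard deviations between arrays of the same breed were 0.079 to 0.36. With 1 array per animal, these hold differences between animals and error between arrays, which cannot be told apart. The shorter and longer probes gave the same log2 difference for miR-188, -0.87, and close ones for miR-362-5p, -0.32 and -0.31, and miR-500, -0.31 and -0.32. They were further apart for miR-660, at -0.25 and -0.19, miR-532, at -0.17 and -0.091, and miR-362-3p, at -0.071 and -0.17, in that order of probes. The shorter probe of miR-362-3p was the exception in detection, being well above background on 1 of 4 HF and 4 of 4 LIM arrays, while the longer one was detected on all 8. Signals of different probes are not set against each other, since each binds its target with its own strength.

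The values are given first as deposited intensity and then as scaled log2 signal. LIM arrays were brighter, with scaling factors of 0.981 to 1.64 against 0.580 to 0.977 for HF, and 272 to 297 against 243 to 267 miRNAs detected. Before scaling, miR-188 parted from the rest. Its intensity was 94.0, 53.9, 90.6 and 79.5 on HF arrays 1 to 4 and 71.0, 87.1, 86.2 and 65.8 on LIM arrays 1 to 4. The breeds overlapped widely, and the log2 difference in intensity, LIM minus HF, was -0.014 (SE 0.29, n = 4 per breed). The first hairpin of the cluster and the neighbour of miR-188, miR-532, gave intensities of 48.5, 61.6, 75.1 and 47.6 in HF and 88.2, 119.1, 77.3 and 109.2 in LIM. Every LIM value lay above every HF value, with a log2 difference of 0.76 (SE 0.29, n = 4 per breed). The other 4 had log2 differences in intensity of 0.53 for miR-500, 0.54 for miR-362-5p, 0.66 for miR-660 and 0.68 for miR-362-3p, each with an SE of about 0.29. The median over all 270 tested miRNAs was 0.78 on that scale, close to the value of miR-532. In whole tissue, fewer cells of a type and less RNA per cell cannot be told apart.

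After scaling to the 75th percentile of each array, miR-188 was the lowest of the members in LIM relative to HF. Its scaled log2 signal was 7.16, 6.54, 6.53 and 6.95 on HF arrays 1 to 4 and 5.86, 5.73, 6.46 and 5.67 on LIM arrays 1 to 4. The lowest HF array stood just above the highest LIM array, replicate 3, so the breeds did not overlap. The means were 6.80 ± 0.31 (SD, n = 4) in HF and 5.93 ± 0.36 (SD, n = 4) in LIM, a log2 difference of -0.87 (SE 0.21), or 1.83-fold higher in HF. The log2 difference was -0.79 with scaling to the median, -0.62 with quantile normalization and -0.54 with the percentile over all probes, and the miRNA passed the threshold of the fit in each. With labelling spike-ins it was -0.087 and did not pass. With no filter on dim miRNAs miR-188 did not pass either, at an unchanged -0.87.

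The level of miR-500 was 7.15, 7.43, 7.17 and 7.18 in HF and 6.84, 6.84, 6.99 and 6.98 in LIM on the scaled log2 scale. Breeds did not overlap, and HF replicate 2 was the highest array. The log2 difference of -0.32 (SE 0.11, n = 4 per breed) turned to 0.0092 with the percentile over all probes, 0.46 with spike-ins and 0.53 without scaling. For miR-362-5p, the 5′ arm of its hairpin, the values were 6.88, 7.34, 6.93 and 6.90 in HF and 6.59, 6.70, 6.75 and 6.77 in LIM. Again the breeds did not overlap and HF replicate 2 stood above the other arrays, and the log2 difference was -0.31 (SE 0.13, n = 4 per breed).

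The remaining members overlapped between breeds on the scaled log2 scale. The values of miR-532 were 6.21, 6.73, 6.26 and 6.21 in HF and 6.17, 6.18, 6.30 and 6.40 in LIM, with a log2 difference of -0.091 (SE 0.14, n = 4 per breed). Those of miR-660 were 6.05, 6.82, 6.26 and 6.14 in HF and 6.16, 5.98, 6.23 and 6.13 in LIM, with a log2 difference of -0.19 (SE 0.17, n = 4 per breed). In both, HF replicate 2 alone lay well above the other 7 arrays. The 3′ arm, miR-362-3p, gave 6.12, 6.58, 6.63 and 6.08 in HF and 6.35, 6.17, 5.96 and 6.24 in LIM, with a log2 difference of -0.17 (SE 0.16, n = 4 per breed). Here HF replicates 2 and 3 were high and replicates 1 and 4 low, and the LIM values of replicates 1, 2 and 4 lay between them. The sign of these 3 differences depends on the setting: it turned in 6 of 25 alternatives for miR-532, 6 for miR-362-3p and 4 for miR-660, among them no scaling, spike-ins and the percentile over all probes. For miR-362-5p it turned in 3, the same ones as for miR-500, and for miR-188 in 0.

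**Figure D1:**
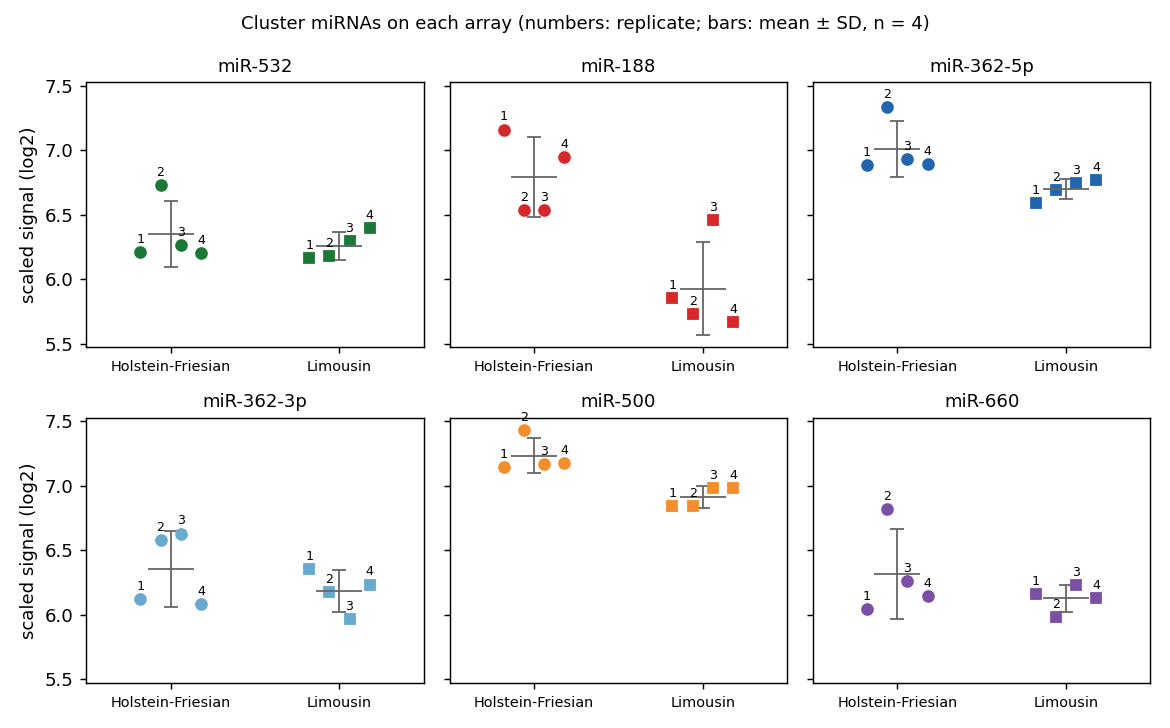
Scaled log2 signal (vertical axis) of the 6 detected cluster miRNAs in Holstein-Friesian and Limousin heifers. Points are single arrays numbered by replicate, and bars give the mean and SD of 4 arrays. The miR-188 points of the breeds are apart, from 6.53 upward in Holstein-Friesian and up to 6.46 in Limousin, and Holstein-Friesian replicate 2 is the highest array for miR-532, miR-362-5p, miR-500 and miR-660.

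In the limma fit across all 270 tested miRNAs, 2 of the 6 detected members passed a Benjamini-Hochberg adjusted p of 0.05, miR-188 and miR-500, both lower in LIM. Among all tested miRNAs, 41.9% passed, 28.1% lower and 13.7% higher in LIM. For 3 of the 6 every HF array lay above every LIM array, and breeds were apart for 36.7% of all tested miRNAs. Since the set was proposed with this contrast known, nothing is read from these counts. The median log2 difference of the 6 was -0.25, against -0.069 for all 270. The call of miR-500 ended when any 1 of the 8 arrays was left out. That of miR-188 held each time, with log2 differences of -1.04 to -0.75. It ended without scaling, with spike-ins and with no filter on dim miRNAs. These refits use the same 8 arrays and the same known contrast, so they add no support. Over all tested miRNAs 37 were higher and 76 lower in LIM, and this split depends on the scaling: 104 and 30 with the percentile over all probes, 55 and 43 with quantile normalization, 81 and 28 in the deposited value table, 173 and 4 with spike-ins and 173 and 2 without scaling.

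After scaling, HF replicate 2 was the highest array for miR-532, miR-362-5p, miR-500 and miR-660, but the second lowest HF array for miR-188. Before scaling, HF replicate 3 was the highest HF array for those first-named miRNAs. Its intensities were 75.1, 119.1, 140.9 and 74.9 in that order, against 61.6, 93.9, 100.2 and 65.7 for HF replicate 2. The scaling factor of HF replicate 2, 0.580, was the lowest of all arrays. Without HF replicate 2, the scaled log2 differences were -0.95 for miR-188, -0.25 for miR-500, -0.20 for miR-362-5p, -0.095 for miR-362-3p, -0.024 for miR-660 and 0.035 for miR-532. The same array had the lowest 75th percentile and the fewest detected miRNAs, 243, and the part of that in these values was not tested.

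**Figure D2:**
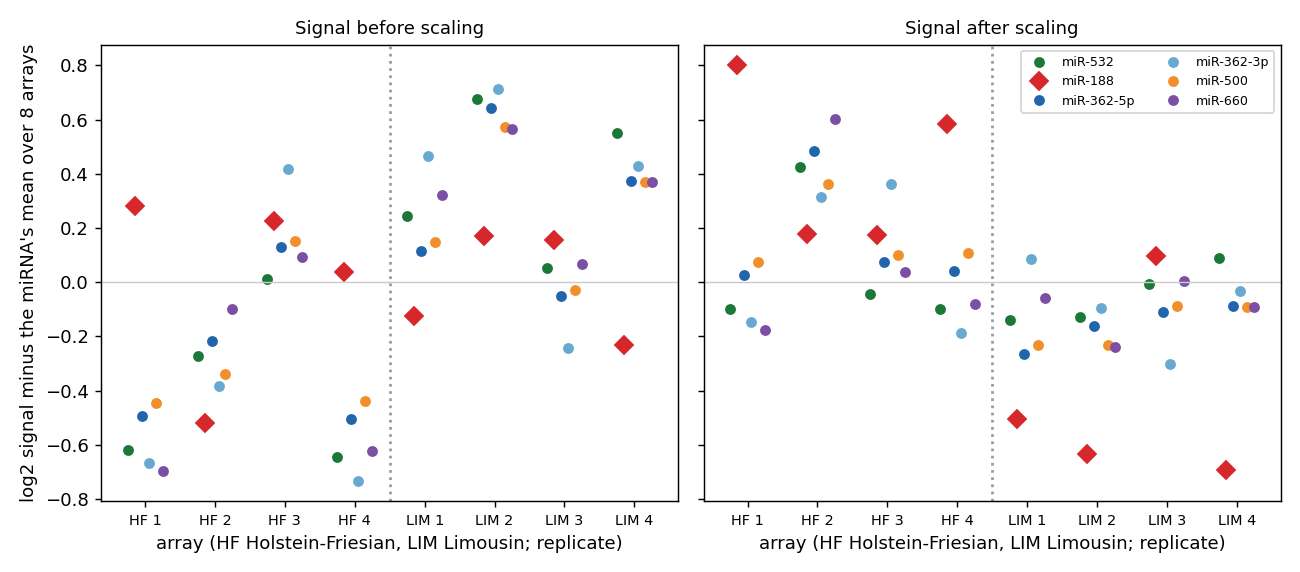
Log2 signal of each cluster miRNA on each array minus its own mean over the 8 arrays, before (left) and after (right) scaling. Diamonds are miR-188 and circles the other 5 miRNAs; before scaling the circles lie above 0 on LIM arrays 1, 2 and 4 and below 0 on HF arrays 1, 2 and 4, the diamond lies below 0 on LIM arrays 1 and 4 and above 0 on HF arrays 1 and 4, but on array 2 of each breed it lies on the same side as the circles.

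A comparison within the cluster needs no scaling, because 1 factor per array cancels in a ratio of 2 miRNAs on that array. Background and base composition do not cancel in this way, and their settings change the gap given below. The difference between miR-188 and the mean of the other 5 detected members was taken on each array and centred on its mean over the 8 arrays. On the log2 scale it was 0.86, -0.26, 0.067 and 0.63 on HF arrays 1 to 4 and -0.38, -0.46, 0.20 and -0.65 on LIM arrays 1 to 4. HF replicates 1 and 4 were the highest and LIM replicates 1, 2 and 4 the lowest, while HF replicate 2 and LIM replicate 3 lay on the side of the other breed, so the breeds overlapped. The breed difference of this ratio was -0.65, with SDs of 0.51 in HF and 0.37 in LIM. On the reported scale miR-188 stood at -0.68 from the median difference of the others, a gap that 9 of the 25 alternatives cannot change, since they shift all members alike or alter only the test. In the other 16 it was -0.38 with normexp, -0.39 without background correction, -0.43 with the GC and length correction, -0.62 with quantile normalization, -0.65 with the mean of probes, -0.66 in the deposited table and -0.95 with array weights. It was -0.86 to -0.46 when 1 array was left out. These describe the same 8 arrays and add no independent support.

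The other 5 members kept closer to each other. Of the 15 ratios between pairs of detected members, the 5 that include miR-188 had SDs over the 8 arrays of 0.45 to 0.63 on the log2 scale, and the 10 without it 0.064 to 0.23. The tightest pair was miR-362-5p and miR-500, with an SD of 0.064 and a breed difference of the log2 ratio of 0.0077 (SE 0.049, n = 4 per breed). For miR-532 the ratio to miR-500 was higher in LIM by 0.23 on the log2 scale (SE 0.065) and the ratio of miR-362-5p to miR-532 had a breed difference of -0.22 (SE 0.035). In these 2 pairs alone, of the 15, the breeds did not overlap. Relative to the mean of the other 5 members, miR-532 was -0.21, 0.037, -0.19 and -0.19 on HF arrays and 0.057, 0.14, 0.073 and 0.29 on LIM arrays after centring. All LIM values thus lay above all HF values, and the log2 difference was 0.28. That mean includes miR-188, the member lowest in LIM relative to HF. The log2 ratios of miR-532 to miR-660 and to miR-362-3p differed by only 0.10 (SE 0.079) and 0.081 (SE 0.17), with the breeds overlapping.

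The arms of the miR-362 hairpin did not keep a fixed ratio. The log2 ratio of miR-362-3p to miR-362-5p, centred over the 8 arrays, was -0.18, -0.17, 0.29 and -0.23 in HF and 0.35, 0.067, -0.19 and 0.056 in LIM. The breeds overlapped, and HF replicate 3 and LIM replicate 1 were the highest. The second mapped place of the miR-362-5p probe could add to that arm alone, and its part was not tested.

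**Figure D3:**
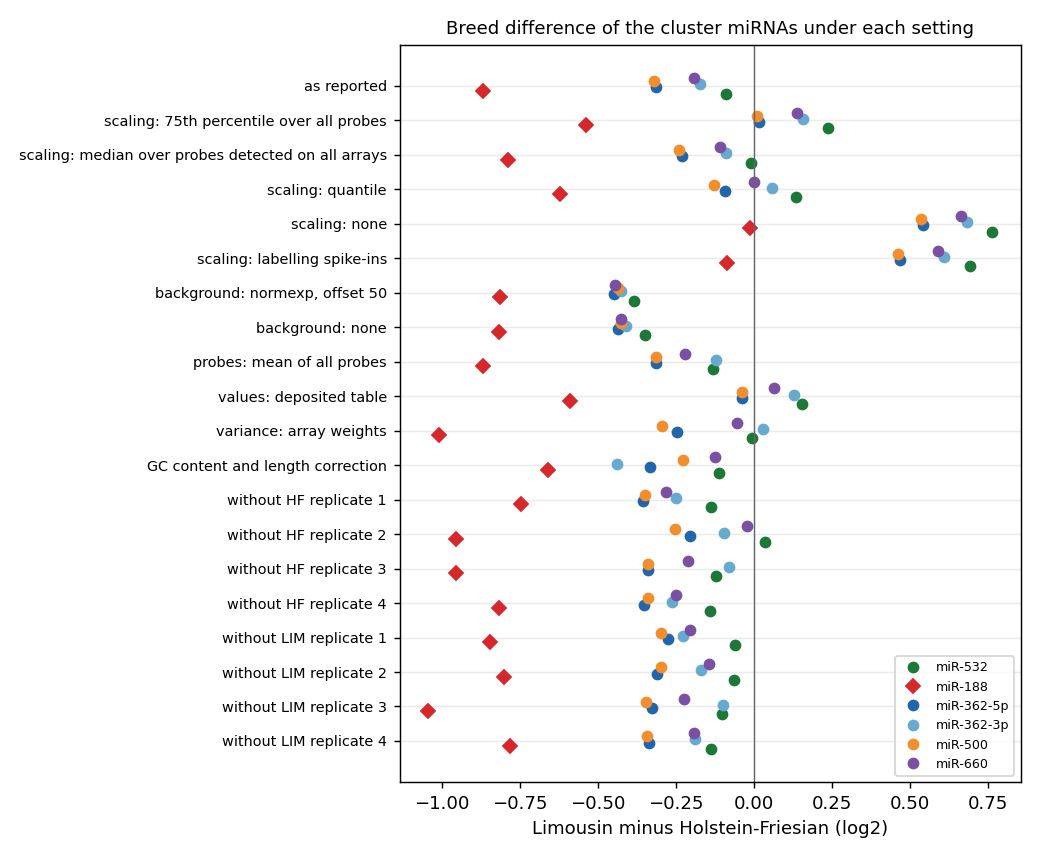
Limousin minus Holstein-Friesian difference on the log2 scale (horizontal axis) of the 6 detected cluster miRNAs under the reported setting and alternatives (rows). Scaling by 1 factor per array shifts all 6 points alike, so their order can differ only in the rows for quantile normalization, background, probes, array weights, the GC and length correction, the deposited table and left-out arrays; miR-188 runs from -1.04 to -0.014 over the rows.

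The profile of each member was set against all tested miRNAs by the root mean square difference over the 8 arrays, after centring each miRNA on its own mean. This measure has no test. For miR-362-5p, the nearest of 269 miRNAs was miR-130b at 0.058 on the log2 scale, followed by its cluster neighbour miR-500 at 0.060. Other members at ranks 5 and 6 were miR-532 and miR-660, while miR-362-3p was at rank 35 and miR-188 at rank 208. Outside the cluster its other nearest profiles were miR-429, miR-432, miR-193a-3p and miR-181d. For miR-500, the nearest of all was miR-362-5p, and outside the cluster miR-181d at 0.10, miR-130b, miR-181b_v12.0, miR-181b and miR-432. For miR-660, miR-532 was at rank 2 behind miR-17-5p at 0.080, and miR-130b, miR-429, miR-6524 and miR-432 followed outside the cluster. For miR-532 the nearest were miR-324 at 0.092, miR-103, miR-429 and miR-17-5p, with miR-660 at rank 5 and miR-432 at rank 6. The epithelial miRNA miR-429, of the miR-200 family, and miR-432 were each among the 5 nearest outside miRNAs for 4 of the 6 members.

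The arm miR-362-3p was nearest to miR-193a-3p at 0.13, miR-429, miR-369-3p, miR-182 and miR-19b, with the members miR-532, miR-660, miR-362-5p and miR-500 at ranks 25 to 34 and miR-188 at rank 238. The profile of miR-188 was close to none of its neighbours in the genome, with members at ranks 83 to 158 of 269. Its nearest were miR-2309 at 0.098, miR-489 at 0.13, miR-2887, miR-2291 and miR-2356, which differed between breeds by log2 differences of -0.84, -0.79, -0.74, -0.75 and -0.62. Their probes had 11, 18, 12, 12 and 14 bases and a GC content of 81.8%, 44.4%, 83.3%, 75% and 64.3%.

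Breed differences on this slide went with the probes' base composition. Across the 270 tested miRNAs, which are not independent, Spearman's rho of the log2 difference was -0.64 with GC content and 0.66 with length. A linear fit on both gave -0.35 at the GC content and length of miR-188, which measured -0.87, and -0.23 for miR-500, which measured -0.32. It gave -0.12 for both miR-532 and miR-362-5p, which have equal GC content and length but measured -0.091 and -0.31. After each array was corrected for both properties, the log2 difference of miR-188 was -0.66 and that of miR-500 was -0.23. Of the members, only miR-188 and miR-362-3p, at -0.44, were then past the threshold. Among all 270 tested miRNAs 78 passed under this correction, 52 of them lower in LIM. Beyond this correction, the part of base composition in the cluster's values was not tested.

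**Figure D4:**
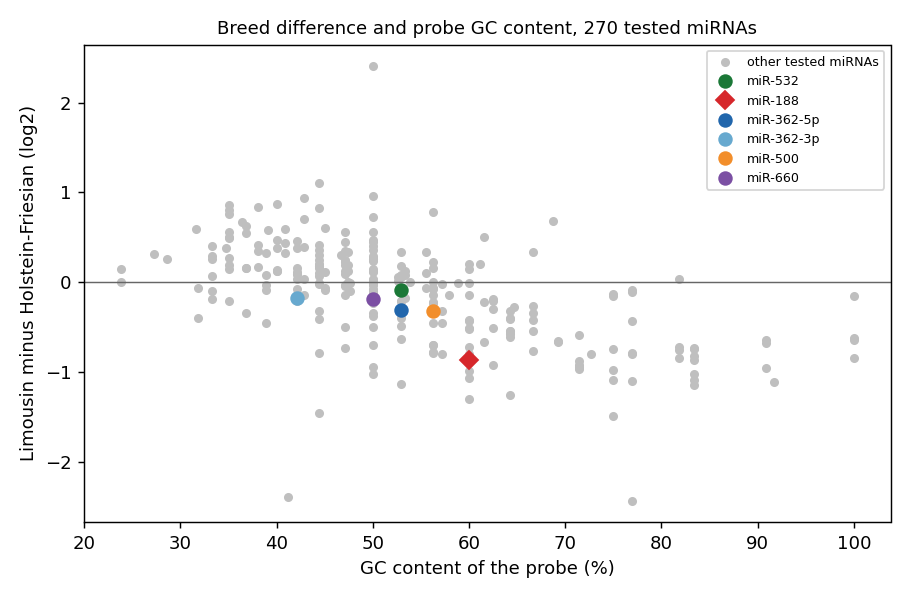
Limousin minus Holstein-Friesian log2 difference (vertical axis) against probe GC content in percent (horizontal axis) for 270 tested miRNAs, grey, with the 6 cluster members in colour. The members run from 42.1% GC for miR-362-3p to 60% for miR-188, which at -0.87 is the lowest of them.

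Tissue markers were read to see which cells the samples hold. All 6 epithelial and all 4 stromal miRNAs listed were well above background on all 8 arrays, as were 4 of 5 leukocyte miRNAs, with miR-142-3p below background throughout. The liver miRNA miR-122 was detected on no array. Of 2 erythroid miRNAs, miR-486 was detected on none and miR-451 on all 8, with a summed scaled log2 signal of 5.37 to 7.20 in HF and 5.38 to 5.87 in LIM. Of 3 skeletal muscle miRNAs, miR-206 was detected on no array and the other 2 on some but not all, with a summed signal of 5.08 to 5.90 in HF and 4.80 to 6.06 in LIM. Summed leukocyte signal was 10.004 to 10.6 in HF and 10.5 to 10.9 in LIM on the scaled log2 scale. Of the 5 leukocyte markers, 2 passed as higher in LIM, miR-142-5p by 0.56 and miR-155 by 0.95, against 13.7% of all tested miRNAs. The log2 differences of miR-223 and miR-150 were -0.15 and 0.022, neither past the threshold. Of the 4 stromal markers, 1 passed as higher in LIM. Summed epithelial signal was 14.1 to 14.3 in HF and 14.2 to 14.3 in LIM. The part of leukocyte content in the cluster's values was not tested.

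The same chromosome held other miRNAs that moved both ways. Of 42 array entries placed on chromosome X outside the cluster, 19 were tested. Of these, 4 were higher in LIM, 2 lower and 13 did not pass (limma, Benjamini-Hochberg over 270). Over all 270 tested, 13.7% were higher, 28.1% lower and 41.9% passed in either direction. The median log2 difference of the 19 was 0.083. Higher were miR-421 by 0.55 (adjusted p = 0.0043), miR-222 by 0.50 (adjusted p = 0.0066) with its neighbour miR-221 by 0.45 (adjusted p = 0.0094), and miR-424-5p by 0.55 (adjusted p = 0.0146). All 4 were higher under every scaling tried, although miR-424-5p missed the threshold once GC content and probe length were corrected for (limma adjusted p = 0.0651). Lower in LIM were miR-363, of the miR-106a-363 cluster, at -1.07 (limma adjusted p = 0.0035), and miR-452 at -0.48 (adjusted p = 0.0257), which, of the scalings tried, passed only with the reported one. It was -0.40 with the median (limma adjusted p = 0.0601), -0.28 with quantile normalization (adjusted p = 0.142) and -0.15 with the percentile over all probes (adjusted p = 0.397), and it turned to 0.37 without scaling (adjusted p = 0.267) and 0.30 with spike-ins (adjusted p = 0.310). The call of miR-363 ended without scaling, at -0.22 (limma adjusted p = 0.530), and with spike-ins, at -0.29 (adjusted p = 0.309).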

How the data were processed

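Total RNA of each animal, 100 ng, was labelled with Cyanine 3-pCp, per the labels' protocols. Per the file headers, Agilent Feature Extraction 10.10.1.1 gave the deposited spot intensity, already corrected for a fitted background and not normalized between arrays. The deposited value table holds log2 values, with the scale read from the values. Each column equals log2 of the total signal per miRNA minus a constant per array, to within 9.7e-06. Rows are not centred. Column medians were -9.79 to -8.53 and the 75th percentiles of the columns -0.022 to -0.00097. The deposited table served as an alternative.

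Control and outlier spots were left out and the 30 spots of each member probe averaged. A probe was detected where over 50% of its spots were well above background. Intensities were scaled to the 75th percentile of probes detected on all arrays, set to at least 1 and logged, and the brightest probe stood for a miRNA. The 270 miRNAs detected on all 4 arrays of a breed were fitted with lmFit and eBayes (limma 3.58.1, R 4.3.3), breed as the only term, Benjamini-Hochberg at 0.05. The fit was tested on simulated data of 270 miRNAs: log2 changes of 0.5, 1 and 2 were recovered for 60.8%, 91.2% and 99.2%. Of the miRNAs called there, 5.64% were false on average. The values were drawn independently on the scaled log2 scale, so scaling, background and base composition were not part of that check. Spike-in scaling used the 2 controls that followed the scanner's labelling metric. No array had saturated spots. The members, lists and alternatives were chosen with earlier results of these data known. Named outside the cluster were the 5 closest profiles per member, each chromosome X miRNA past the threshold and some of the tissue markers. The number of arrays limits the precision. Mature miRNA sequences were not used here.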

Additional observations from a re-analysis of the deposited data

Results flagged for a closer look

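In groups of 4 arrays, a value was singled out where its gap to the nearest other array was over 0.829 of the group's range, which chance does for about 1 in 20 groups. Of 12 groups, 6 miRNAs in each of 2 breeds, 3 were singled out, all through HF replicate 2 on the high side. It gave a scaled log2 signal of 7.34 for miR-362-5p against 6.88 to 6.93 in the other HF arrays, 6.73 for miR-532 against 6.21 to 6.26, and 7.43 for miR-500 against 7.15 to 7.18. These 3 are not independent, since they come from 1 array. They hold for the scaled signal, and before scaling HF replicate 3 was the highest HF array for all 3.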

How the results depend on the processing

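Across 25 alternatives for each of 6 members, the log2 difference changed sign in 22 of 150 cases: 6 for miR-532 (values of -0.38 to 0.76), 6 for miR-362-3p (-0.44 to 0.68), 4 for miR-660 (-0.45 to 0.66), 3 for miR-362-5p (-0.45 to 0.54), 3 for miR-500 and 0 for miR-188 (-1.04 to -0.014). Of the 2 members past the threshold, miR-500 turned to 0.0092 with the percentile over all probes, 0.53 without scaling and 0.46 with spike-ins. The count of 2 members past the threshold went to 1, miR-188, with the percentile over all probes, median or quantile scaling, the mean of probes, the deposited table, the replicate block, and the GC and length correction with the block, and to 1, miR-500, with no filter on dim miRNAs. It was 6, all lower, with normexp or no background correction. Over all 270 tested, 146 passed as lower and 26 as higher with normexp, and 143 and 27 without background correction. Without scaling or with spike-ins 3 passed, miR-532, miR-660 and miR-362-3p, all higher in LIM, as were 173 of all 270 in each. Array weights gave 3, miR-188, miR-500 and miR-362-5p, all lower in LIM, where 152 of all 270 passed, 97 of them lower. The count of members was 1 without any single array. Over all tested miRNAs 113 became 175 without scaling, 177 with spike-ins, 172 with normexp, 170 without background correction and 61 with the GC and length correction and the block. Leaving out 1 array gave 71 (without LIM replicate 1) to 142 (without HF replicate 2), and 73 without HF replicate 4. With the replicate number as a block 84 passed. Same-numbered arrays had correlations of deviations of -0.31, -0.25, -0.45 and 0.32. The best partner was the same-numbered array only for number 4. So few values cannot decide whether the numbers pair the animals. Same-numbered arrays also share the second number of the slide position. The chromosome X median of 0.083 was 0.94 without scaling and 0.049 to 0.12 without 1 array. The causes were not tested. Signals of the longer probes were only 2.46 to 11.0 times the lowest detected intensity of their array, which restricts what the cluster can show.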
